A study of Oryza sativa with 16 samples.

Results

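The drought response of Vandana, the drought-tolerant rice variety of the study, was measured on 4 of the 16 Affymetrix rice genome arrays, namely the 2 labelled as its control and the 2 labelled as its drought group. The members were taken by these labels, with earlier results of these data known, and the response was taken over all 57194 probe sets that are not controls of the array. The whole series has 8 groups of 2 arrays, from control and stressed seedlings of a pair of varieties under salt and a pair under drought. The drought pair is Vandana and the drought-sensitive IR64, and the 4 arrays of IR64 serve here for comparison.

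All 4 groups of the drought experiment were rice seedlings in hydroponic culture, not transgenic, whose leaves are given as the tissue. The Vandana and IR64 control groups stayed in the nutrient medium, and the drought groups of both varieties were taken out of it and held in air. The sources differ on the details. The labels give seedlings of 2 weeks and 24 h of drought, whereas the methods give 12 h and seedlings of 14 days in one place and of 10 days in another, where the tissue is shoot. A description of the design speaks of whole plants on the arrays, so that roots may be included. Shoots were pooled in equal amounts before RNA was extracted. The arrays of each group are lettered A and B without a statement that separate plants were used, so that the p-values measure only the spread between arrays, which may be technical. Each array averages over all cells of the pooled tissue, and fewer cells of a type cannot be told apart from less RNA per cell.

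A plant that loses water makes abscisic acid (ABA), a hormone whose receptors, once bound, hold back phosphatases of the PP2C family. Kinases of the SAPK family are thereby freed to phosphorylate bZIP transcription factors, which switch on protective genes. Among these are the genes for dehydrins and other late embryogenesis abundant (LEA) proteins, which shield membranes and proteins of drying cells, for heat shock proteins, which keep proteins folded, and for enzymes for solutes such as proline. Leaf expansion, wall synthesis and chlorophyll production slow down in drying leaves.

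Levels are given as log2(intensity + 16) after quantile normalization over all arrays, so that a probe set without signal lies near 4 and the change of dim probe sets is understated. Differences are in log2 units, with a standard error from limma that pools the spread over the groups. A probe set or gene is called up or down, and is said to have risen or fallen, at a Benjamini-Hochberg adjusted p under 0.05 over all probe sets together with a difference of at least 1 log2 unit. The brightest probe set stands for a gene.

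The labels of the drought arrays were set against the data first, because a difference between varieties that does not depend on water should appear with the same sign in the controls and under drought. At 230 probe sets the Vandana control was at least 2 log2 units above the IR64 control. Of these, 70 were also at least 2 units apart between the drought groups, and all 70 had the opposite sign there, being high on the arrays labelled Vandana control and IR64 drought and low on those labelled Vandana drought and IR64 control. The picture was not symmetric. At the 431 probe sets where the Vandana control was at least 2 units below the IR64 control, the arrays labelled Vandana drought were higher than those labelled IR64 drought at 341, but by a median of only 0.42 units, and 0 of them were 2 units apart.

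The same held for probe sets that were clearly high (at least 8 on both arrays) or clearly low (under 5 on both) in each of the 4 groups. High in both Vandana groups and low in both IR64 groups were 0 probe sets, and the reverse was also found for 0. In contrast, 6 were high only in the Vandana control and IR64 drought, 8 only in both drought groups, and 19 were low only in the Vandana control. Over all probe sets the arrays labelled Vandana drought correlated with those labelled IR64 drought at r = 0.980 to 0.982, with the IR64 control at 0.939 to 0.942 and with the Vandana control at 0.886 to 0.889. The variety labels of the drought experiment are therefore in doubt. An exchange of the control labels would change the signs as one of the drought labels would, and which pair is concerned was not tested. The effects of variety and of drought cannot be told apart for genes that differ from 1 of the controls only. The main counts are given by the labels and again with the IR64 control in place of the Vandana control, as are the genes described in most detail. Values without such a second value are by the labels only. Both comparisons use the same drought arrays and are not independent of each other.

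**Figure D1:**
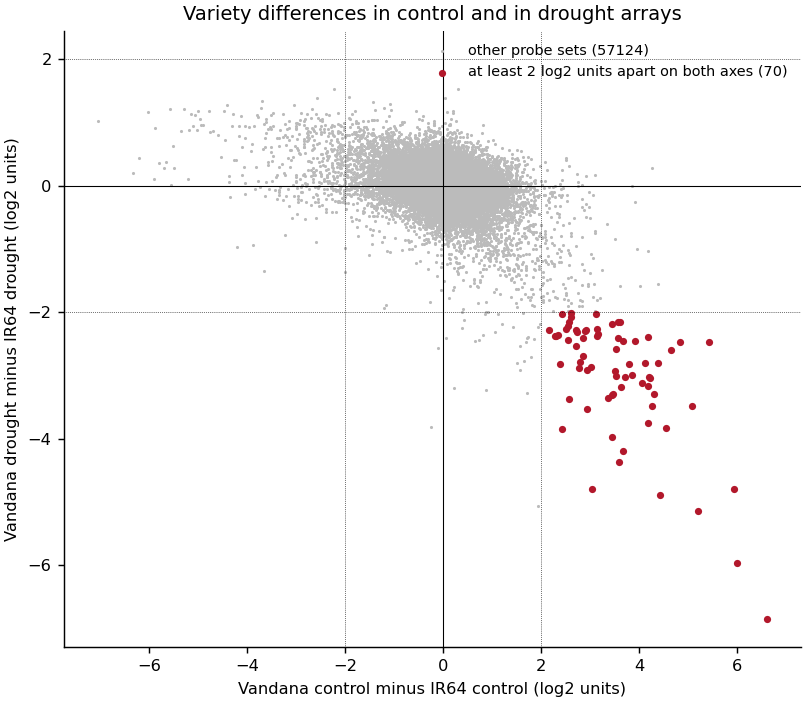
Each point is a probe set. The horizontal axis is the Vandana control minus the IR64 control and the vertical axis Vandana drought minus IR64 drought, both in log2 units as differences of group means of 2 arrays. Dotted lines mark 2 log2 units, and the 70 probe sets past them on both axes, in red, all lie at the lower right, where the sign differs between the axes.

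The Vandana control arrays also stood apart in signal. Control array B had a mean intensity of 230, against 109 for control array A and 99.8 to 138 for the other 6 arrays of the drought experiment. GAPDH control probe sets at the 3' and 5' ends of the transcript, whose log2 ratio rises as RNA gets shorter, stood at 1.21 and 1.34 on the Vandana control arrays, 0.49 and 0.61 on the Vandana drought arrays and at most 0.49 in IR64. Replicates of both Vandana groups correlated at r = 0.989 and 0.988. The salt arrays also enter the normalization and the pooled standard errors. Among them, salt array B of the variety CSR11 had a mean intensity of 9.16 and a GAPDH log2 ratio of 6.35. The 2 CSR11 salt arrays correlated at r = 0.929. The part of RNA length or of signal in the results below was not tested. Without a step to align the arrays, the median change over all probe sets moved from 0.01 to -0.16.

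By the labels, 3005 probe sets were up regulated (5.25% of those tested) and 3731 down regulated (6.52%) in the arrays of Vandana drought against the Vandana control. Changes of at least 4 log2 units were more often up, at 131 probe sets, than down, at 49. Counted by gene, 1898 of 17905 genes rose (10.6%) and 2425 fell (13.5%), and the median over all genes was 0.02. Centring the arrays on their medians instead gave 1526 up and 3103 down, and the values as deposited gave 761 and 2315.

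Against the IR64 control, the same drought arrays had 1401 probe sets up (2.45%) and 2192 down (3.83%). Called in the same direction against both controls were 1148 up (2.01%) and 1710 down (2.99%). These counts were 489 and 641 with centred arrays, and with values as deposited they turned to 236 up and 148 down. By gene these were 736 up (4.11%) and 1198 down (6.69%). A further 1827 probe sets rose and 2018 fell against the Vandana control without a call against the IR64 control, 30 rose against the first and fell against the second, and 3 did the reverse. The controls themselves differed at 2717 probe sets (4.75%), whereas the 2 drought groups differed at 327 (0.572%), of which 292 were lower in the arrays labelled Vandana drought.

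**Figure D2:**
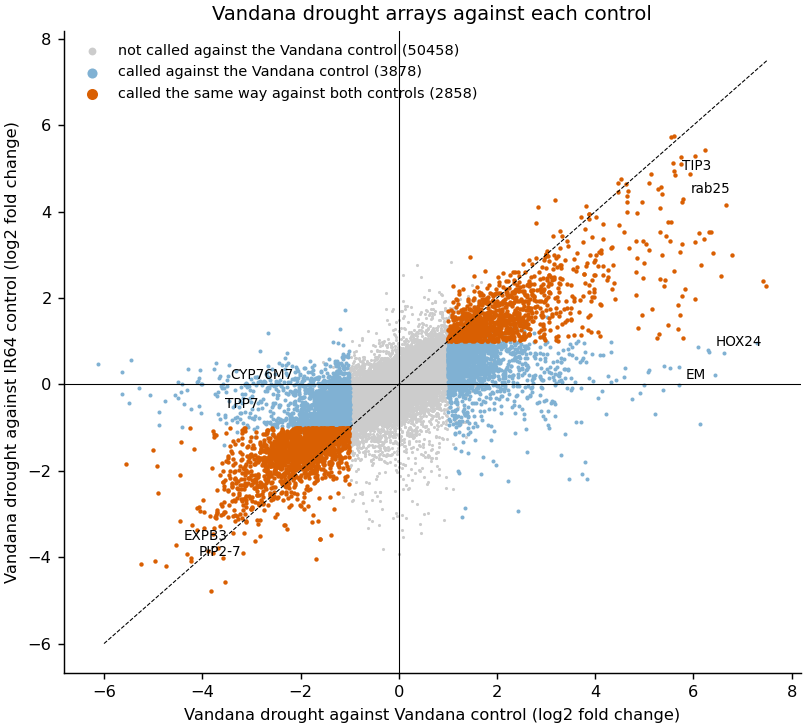
Each point is a probe set, with its log2 fold change in Vandana drought against the Vandana control on the horizontal axis and against the IR64 control on the vertical axis, and the dashed line marks equal values. Orange points were called in the same direction against both controls (2858), and blue points only against the Vandana control or in another direction (3878), among them HOX24 and EM near the zero of the vertical axis.

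Dehydrins, a transcription factor, an aquaporin and a small heat shock protein were among the 15 genes with a symbol that rose most. RAB16D, a dehydrin, was at 5.54 and 5.39 on control arrays A and B and at 11.71 and 11.93 on drought arrays A and B. It rose by 6.36 (standard error 0.20, adjusted p = 3.72e-09), and by 3.52 against the IR64 control. HOX24, a homeodomain-leucine zipper transcription factor, was at 5.13 and 4.98 in the control and at 11.28 and 11.45 in drought. Its difference of 6.31 (standard error 0.12, adjusted p = 3.63e-10) came to 0.76 against the IR64 control, where it was already at 10.60 and 10.62. For rab25, another dehydrin, both control arrays were at 4.50 and the drought arrays at 10.31 and 10.28. It rose by 5.80 (adjusted p = 3.03e-09) and by 4.29 against the IR64 control, so that its rise was seen with either control.

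PM19L1, named for a plasma membrane protein of the AWPM-19 kind, was at 5.81 and 5.66 in the control and at 11.81 and 11.84 in drought, and rose by 6.09. In the IR64 control it stood at 10.97 and 10.94. LTP-2, a lipid transfer protein, rose by 5.73, from 5.68 and 5.85 to 11.41 and 11.59, and by 3.07 against the IR64 control. TIP3, an aquaporin of the vacuole membrane, was at 5.26 and 5.20 in the control and at 10.88 and 10.82 in drought, a rise of 5.62 (adjusted p = 1.07e-09) that was 4.84 against the IR64 control.

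R1C-Prx, a peroxiredoxin, which removes peroxides, was at 4.62 and 4.65 in the control and at 9.72 and 9.81 in drought. It rose by 5.13 (standard error 0.44), and by 4.87 against the IR64 control. SWEET15, a sugar exporter, was at 5.78 and 5.77 in the control and at 11.10 and 11.18 in drought, and rose by 5.37 and by 3.0 against the IR64 control. HSP16.9B, a small heat shock protein, went from 5.20 and 5.80 to 10.66 and 10.55, a rise of 5.10 (adjusted p = 5.54e-09), with 4.65 against the IR64 control. Of the 15 genes with a symbol that rose most, 11 were called against both controls. The others were HOX24, PM19L1, EM and pinA. EM, a LEA protein, was at 4.64 and 4.71 in the Vandana control, at 10.30 and 10.45 in Vandana drought and at 10.34 and 10.43 in the IR64 control. The gene called pinA was at 5.17 and 5.08, at 11.56 and 11.58, and at 11.39 and 11.30 in the same order. PP2C59, a protein phosphatase, rose by 5.09, PDHE1-A (gene ID 4340640), named for a subunit of pyruvate dehydrogenase, by 5.03, and the dehydrins RAB16C and RAB16B by 5.43 and 4.87.

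Expansins and a plasma membrane aquaporin were among the 15 genes with a symbol that fell most. EXPB3, an expansin, which loosens cell walls, was at 11.17 and 11.15 on the control arrays and at 6.58 and 6.68 on the drought arrays. It fell by 4.53 (standard error 0.16, adjusted p = 6.73e-09) and by 3.73 against the IR64 control. PIP2-7, an aquaporin of the plasma membrane, was at 10.56 and 10.62 in the control and at 6.39 and 6.36 in drought. It fell by 4.22 (standard error 0.14, adjusted p = 6.42e-09) and by 4.10 against the IR64 control, so that the choice of control hardly mattered. EXP2, another expansin, fell by 3.79, from 9.30 and 9.63 to 5.61 and 5.74, and by 1.93 against the IR64 control.

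Also among these 15 were NIA1, CFBP1, SUS1 and CRSH2. NIA1, a nitrate reductase, was at 11.34 and 11.17 in the control and at 7.99 and 7.92 in drought. It fell by 3.29 (standard error 0.11, adjusted p = 5.77e-09) and by 3.05 against the IR64 control, though a dimmer probe set of NIA1 was at -0.12. CFBP1, a fructose bisphosphatase of the cytosol, fell by 3.34, from 11.13 and 11.45 to 7.93 and 7.96, and fell by 3.03 against the IR64 control. The sucrose synthase gene SUS1 fell by 3.26, from 10.15 and 10.07 to 6.86 and 6.85, and fell by 1.98 against the IR64 control. CRSH2, a chloroplast enzyme for the signal nucleotide ppGpp, was at 8.58 and 8.27 in the control and at 4.83 and 4.94 in drought. It fell by 3.54, and by 4.57 against the IR64 control.

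Of the 15 genes with a symbol that fell most, 12 were called against both controls. The exceptions were CYP76M7, a cytochrome P450 of diterpenoid phytoalexin synthesis, TPP7, a trehalose phosphate phosphatase, and NAS3, a nicotianamine synthase. CYP76M7 was at 7.78 and 7.87 in the Vandana control, at 4.42 and 4.09 in Vandana drought and at 4.38 and 4.13 in the IR64 control. TPP7 fell by 3.69 by the labels, from 7.74 and 7.69 to 4.02 and 4.03, while the IR64 control was at 4.58 and 4.82 and another probe set of the gene was at -0.21. NAS3 fell by 3.25, with -0.52 against the IR64 control. The remaining genes of the 15 were RH2, named for an RNA helicase, at -4.45, the laccase LAC4 at -3.72, the peroxiredoxin PRXIIE-2 at -3.60, the glutaredoxin GRXC1 at -3.43 and the sugar transporter SWEET2b at -3.30.

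**Figure D3:**
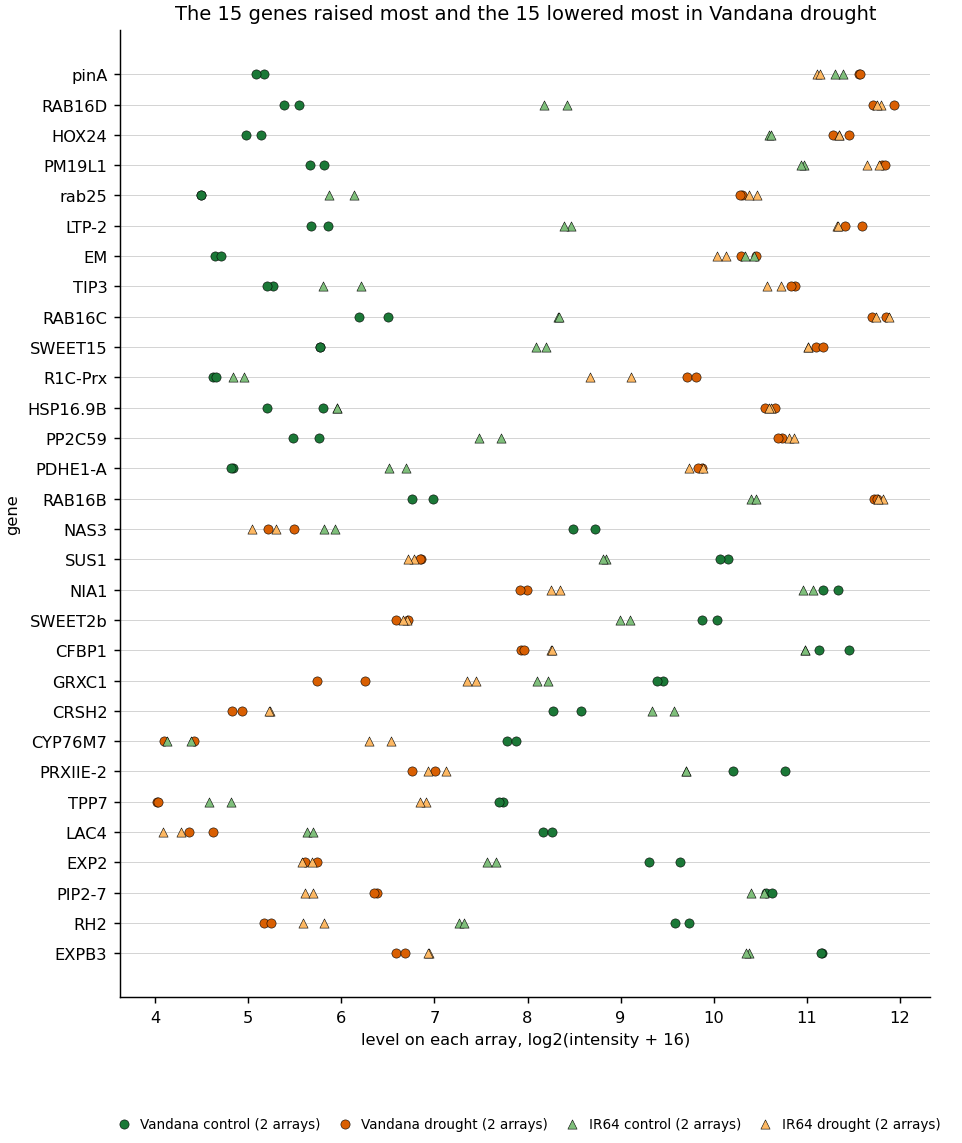
Each point is 1 array, with the level of the gene as log2(intensity + 16) on the horizontal axis, circles for Vandana and triangles for IR64, dark and light green for control and dark and light orange for drought. The upper 15 genes rose most and the lower 15 fell most by the labels, and the IR64 control triangles lie beside the drought points for EM, pinA and CYP76M7 and beside the Vandana control for PIP2-7, NIA1 and CFBP1.

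Genes with only a locus number reached larger values. LOC4352472 was at 4.48 and 4.33 in the Vandana control and at 11.75 and 11.65 in Vandana drought, a rise of 7.30, but the IR64 control was at 10.69 and 10.79. LOC4345700 rose by 6.79 and by 3.0 against the IR64 control. LOC4341223 fell by 5.63, from 10.33 and 9.99 to 4.56 and 4.49, but was at 0.29 against the IR64 control. LOC4350706 fell by 5.55. No role is given for these genes in the annotation used here.

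Along the ABA pathway, the step where the hormone is broken down rose and the receptor measured fell. ABA8OX2 and ABA8OX1, ABA 8'-hydroxylases, rose by 3.21 (adjusted p = 5.84e-09) and 2.29, while ABA1, of ABA synthesis, was at -0.20. ABA8OX2 was at 5.83 and 5.82 on the control arrays and at 9.10 and 8.97 on the drought arrays. In the IR64 control it was at 8.98 and 9.04, and 0 of the 3 genes of synthesis and breakdown were called against both controls. PYL11, the 1 receptor on the list, fell by 1.28 against the Vandana control and was at -0.03 against the IR64 control.

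The PP2C phosphatases linked to ABA rose in 6 of 7 cases (85.7% against 10.6% of all genes, median 3.25 against 0.02 for all genes). PP2C68 rose by 4.60, from 5.18 and 5.25 to 9.90 and 9.73, but it stood at 9.39 and 9.50 in the IR64 control. PP2C51 rose by 4.27 (standard error 0.15, adjusted p = 6.57e-09), from 4.66 and 4.32 to 8.71 and 8.81, and by 2.47 against the IR64 control. PP2C30 and PP2C08 rose by 3.85 and 3.25, and these 2 genes and PP2C51 were the 3 called against both controls. PP2C53 was at 0.60.

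Of 10 SAPK kinases 4 rose (40% against 10.6% of all genes, median 0.32, but -0.14 with values as deposited), led by SAPK6 at 2.48 and SAPK1 at 2.35. SAPK1 was the only one called against both controls, with 1.2 against the IR64 control. SAPK3 was at 1.51 and SAPK10 at 1.16. Of the 4 kinases 2 were called with centred arrays and 0 with values as deposited. Both bZIP factors on the list, TRAB1 and ABF2, rose by 1.59 and 1.70, and neither was called against the IR64 control, where they were at 0.24 and -0.10. With centred arrays and with values as deposited PYL11 and both bZIP factors were not called.

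Other transcription factors were called in part, where 10.6% of all genes rose and 13.5% fell. Of 25 homeodomain-leucine zipper genes 6 rose and 3 fell, 2 and 0 of them against both controls (median 0.05, but -0.25 with centred arrays and -0.50 with values as deposited). HOX7 rose by 4.05 and by 1.22 against the IR64 control, HOX12 by 2.33 and 1.89, and Hox22 by 2.14 but 0.06. Of 10 DREB and ERF genes, factors of the ABA-independent branch among them, 1 rose (median 0.03, but -0.17 with values as deposited), and that was DREB2A at 1.87, which was at 1.35 against the IR64 control. This share of 10% is near the 10.6% of all genes. NAC factors counted 3 up and 1 down of 8, 1 and 1 against both controls, and 0 were called with values as deposited (median 0.23, but -0.02 with values as deposited), with NAC048 at 2.31, although its 2 dimmer probe sets were at -0.18 and 0.10. Of 18 heat stress factors 8 rose and 1 fell (median 0.73), and 2 and 1 did so against both controls. With centred arrays 4 rose and with values as deposited 2. HSF01 led them at 3.43 and was at 1.48 against the IR64 control, while HSF05 was at 2.13 and -0.11.

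Genes for LEA proteins, dehydrins and small heat shock proteins rose more often than all genes, of which 10.6% rose and 13.5% fell. For LEA proteins and dehydrins, 8 of 8 genes rose (median 5.15), and 6 of the 8 were called against both controls, with a median of 1.29 against the IR64 control. The smallest rise was that of LEA19 at 1.45. This list was chosen with results of these data known, as were the others. Small heat shock proteins rose in 13 of 19 cases and fell in 1 (median 1.65), and here 12 were up and 1 down against both controls (median 1.45 against the IR64 control). With centred arrays 7 of the small heat shock proteins were up and with values as deposited 6, and of the LEA list 6 and 5. HSP23.2 rose by 4.64, from 5.15 and 5.26 to 10.06 and 9.64, and by 4.23 against the IR64 control. HSP18.1 rose by 4.23 and HSP18.0 by 3.93, although 2 dimmer probe sets of HSP18.0 were at -0.88 and 0.63. HSP18.8 went the other way, at -2.45. Among 8 large chaperones 2 rose (median 0.17, but -0.25 with values as deposited), namely CLPB1 at 1.75 and CLPB3 at 1.57, both of the ClpB kind that dissolves protein aggregates, and 0 were called with values as deposited.

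For solutes, 4 of 8 genes of proline, betaine and polyamine synthesis rose and 1 fell (median 0.82), and 2 rose and 1 fell against both controls. By the labels 50% rose, against 10.6% of all genes, while the 12.5% that fell were near the 13.5% of all genes. With centred arrays and with values as deposited 1 rose and 0 fell. P5CS2, which makes the first intermediate of proline, was at 5.08 and 5.26 in the control and at 9.53 and 9.59 in drought. It rose by 4.39 (standard error 0.40, adjusted p = 8.74e-06) and by 2.35 against the IR64 control, but 3 dimmer probe sets of it were between -0.07 and 1.05. P5CS1 rose by 1.79, OAT, an ornithine aminotransferase, by 2.54 and BADH1, a betaine aldehyde dehydrogenase, by 1.42. Against the IR64 control they were at 0.41, 2.16 and 0.87. ADC1, an arginine decarboxylase of polyamine synthesis, fell by 1.21. RFS, of raffinose synthesis, was at 0.55.

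Some aquaporins were called. Of 10 genes for the plasma membrane kind 0 rose and 2 fell (median -0.12; 20% down against 13.5% of all genes), PIP2-7 and PIP2-4, the latter by 1.51 and by 2.14 against the IR64 control. Of 8 for the vacuole membrane 3 rose and 0 fell, against 2 with centred arrays and 1 with values as deposited (median 0.28, but -0.14 with values as deposited). By the labels 37.5% of this list rose, against 10.6% of all genes. TIP3 alone was called against both controls. TIP4-2 rose by 1.38 and TIP3-2 by 1.02, beside the far larger change of TIP3. TIP3-2 was not called without control array B (0.79) or drought array A (0.99).

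Sugar genes moved both ways, where 10.6% of all genes rose and 13.5% fell. Of 42 genes of sucrose and trehalose metabolism and sugar transport 8 rose and 9 fell (median 0.02, but -0.08 with centred arrays and -0.33 with values as deposited), and 6 rose and 5 fell against both controls. With values as deposited 2 rose and 5 fell. SUS4, which cleaves sucrose, had control levels of 7.81 and 7.87 and drought levels of 11.30 and 11.48, a rise of 3.55 (adjusted p = 8.66e-09) and of 2.68 against the IR64 control, whereas SUS1 of the same family fell. NIN1, a neutral invertase, rose by 2.33, and CIN1, a cell wall invertase, fell by 1.56. Starch metabolism counted 4 up and 2 down of 12 (median 0.00), 3 and 0 of them against both controls and 1 and 0 with values as deposited, with the starch synthase SSI at 2.54 and the amylase amy2A at 1.88. Both enzymes that set the glyoxylate cycle apart, by which fat is turned to sugar, rose. ICL, isocitrate lyase, went from 6.77 and 6.71 to 10.90 and 10.91 and MS, malate synthase, from 6.75 and 6.48 to 10.78 and 10.75, and against the IR64 control they rose by 2.54 and 3.36. These 2 genes were on no list and were picked out after their values were seen.

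Genes of chlorophyll synthesis fell, while those of the light-harvesting machinery were not called. Of 9 genes of chlorophyll synthesis 5 fell and 0 rose (median -1.69), and the same 5 were called against both controls, while 4 were called with centred arrays and 3 with values as deposited. By the labels 55.6% of this list fell, against 13.5% of all genes. CHLD, a subunit of magnesium chelatase, was at 9.61 and 9.60 in the control and at 7.06 and 7.04 in drought. It fell by 2.56 (standard error 0.09, adjusted p = 8.33e-09) and by 1.59 against the IR64 control. PORA and PORB, which reduce protochlorophyllide, fell by 2.52 and 1.97, the chlorophyll synthase CHLG by 2.32 and CHLH, another chelatase subunit, by 1.69, with a dimmer probe set of CHLH at -0.38. In contrast, 0 of 7 genes of photosystems, antennae and Rubisco were called (median -0.15). The lowest of them, the antenna gene CAB2R, was at -0.55, and rca, Rubisco activase, at -0.37.

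Genes of chlorophyll breakdown rose, 3 of 4 (75% against 10.6% of all genes, median 1.29), all 3 against both controls, though 0 were called with centred arrays or with values as deposited. SGR, which takes magnesium out of chlorophyll, rose by 2.13, and NYC1 and NOL, the reductases of chlorophyll b, by 1.53 (standard error 0.47) and 1.06, with a dimmer probe set of NOL at 0.74. NYC1 was not called when any of the 4 Vandana arrays was left out, at values of 1.47 to 1.58. The SAG12 gene of late senescence was at -0.03. For carotenoids the phytoene synthases diverged, with PSY3 up by 3.33 and PSY2 down by 1.39, while PSY1 was at 0.08. PSY3 was at 6.52 and 6.71 in the Vandana control and at a mean of 9.94 in drought, but at 9.86 and 9.93 in the IR64 control.

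Genes of wall building fell more often than all genes, of which 13.5% fell and 10.6% rose. In the cellulose synthase superfamily 13 of 29 genes fell and 4 rose (median -0.09), and 8 and 3 did so against both controls. With centred arrays 8 fell and 2 rose, and with values as deposited 4 and 1. CESA1, of the primary wall, was at 10.58 and 10.17 in the control and at 7.24 and 7.21 in drought. It fell by 3.15 (standard error 0.15, adjusted p = 5.66e-08) and by 2.43 against the IR64 control. CESA4 and CESA7, of the secondary wall, fell by 2.64 and 2.57, with -1.30 and -1.0 against the IR64 control. CSLA5, a relative that is named for mannan synthesis, rose by 4.16 and by 3.71 against the IR64 control. Expansins and XTH enzymes counted 9 down and 1 up of 30 (median -0.13), 6 and 1 against both controls and 5 and 0 with values as deposited, with EXPB6 at -2.93 and EXPB4 at -2.75.

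Cytosolic ribosomal proteins fell in 12 of 22 cases (54.5% against 13.5% of all genes, median -1.06) with RPS26 at -1.62 and RPL11 at -1.57, but 0 of the 22 were called against the IR64 control, where the median was -0.58. With centred arrays and with values as deposited 0 of them were called. At a share near that of all genes, of 63 genes that act in DNA replication or in the cell cycle 10 fell and 2 rose (median -0.20; 15.9% down against 13.5% of all genes), and 0 of them were called against both controls. With centred arrays 5 fell and 0 rose, and with values as deposited 3 and 0. The replication factors PCNA, MCM4 and MCM2 fell by 1.81, 1.6 and 1.52. Markers of dividing cells, 12 genes that share members with that list, fell in 4 cases (33.3% against 13.5% of all genes). With centred arrays 1 of these markers fell and with values as deposited 0. The summed level of the markers was 366 to 411 on the Vandana control arrays, 108 to 156 on the Vandana drought arrays and 226 to 238 on the IR64 control arrays. Its part in the results on growth genes was not tested.

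**Figure D4:**
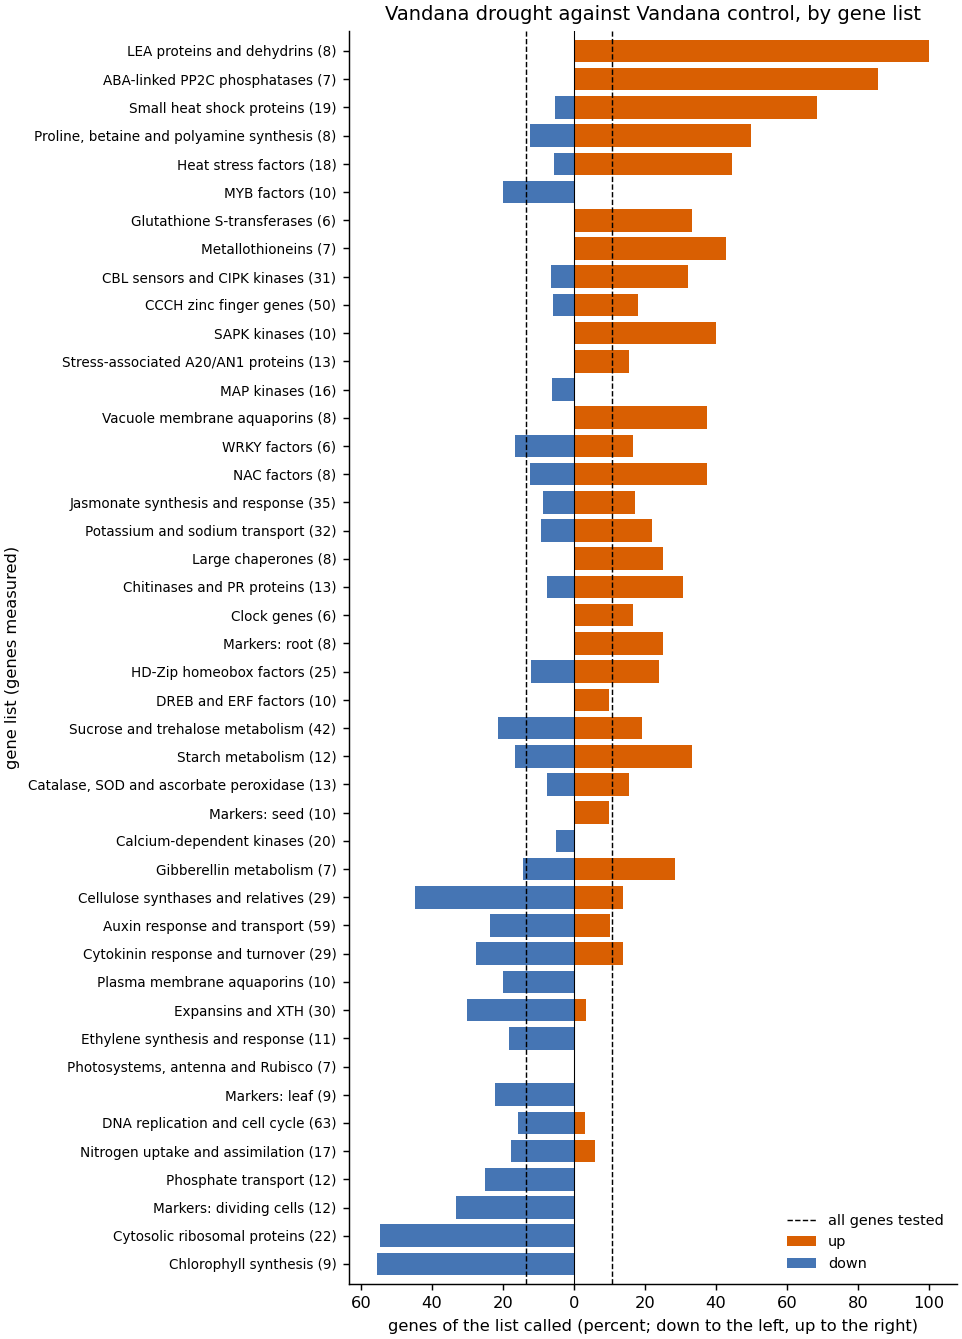
Each row is a gene list with at least 6 measured genes (number in brackets), ordered by its median change, and the bars give the percent of its genes called up (orange, to the right) and down (blue, to the left) in Vandana drought against the Vandana control. The dashed lines mark all genes tested, 10.6% up and 13.5% down, and LEA proteins stand at the top with all 8 genes up while chlorophyll synthesis stands at the bottom with 5 of 9 down.

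Growth hormones were called in both directions. Auxin genes counted 14 down and 6 up of 59 (median -0.10), 5 and 5 against both controls and 4 and 2 with values as deposited, with IAA23, a repressor of auxin response, at -2.28, the efflux carrier PIN5a at -2.14 and, upward, IAA20 (gene ID 4340245) at 2.45. By the labels these were 23.7% down and 10.2% up, against 13.5% and 10.6% of all genes, so that the upward share was near that of all genes. Cytokinin genes counted 8 down and 4 up of 29 (median -0.11), and 2 down and 0 up against both controls. With values as deposited 5 were down and 0 up. By the labels the cytokinin list was at 27.6% down and 13.8% up. RR9, a response regulator, fell by 2.79 but was at -0.55 against the IR64 control, and LOG, which activates cytokinin, fell by 2.10 and by 1.95, although a dimmer probe set of LOG was at -0.17. Of 7 gibberellin genes 2 rose and 1 fell, 1 and 0 of them against both controls (median -0.04), with GA20OX3, named for a gibberellin oxidase, at 3.05 and at 2.27 against the IR64 control. Of 11 ethylene genes 0 rose and 2 fell, 1 of them against both controls (median -0.14). The receptor ETR3 fell by 1.45 and EIL1 (gene ID 4332697), a factor of ethylene response, by 2.26. Jasmonate genes counted 6 up and 3 down of 35, 1 and 1 against both controls and 1 and 0 with values as deposited (median 0.18, but -0.19 with values as deposited), with AOS3, an allene oxide synthase, at 2.93 and at 2.33 against the IR64 control. The gibberellin, ethylene and jasmonate lists were at 28.6%, 0% and 17.1% up and at 14.3%, 18.2% and 8.6% down by the labels.

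Among other signalling genes, CBL calcium sensors and their CIPK kinases counted 10 up and 2 down of 31 (median 0.42, but -0.03 with values as deposited), of which 2, CBL10 at 2.43 and CIPK29 at 2.16, were called against both controls. With centred arrays 3 were up and with values as deposited 0. For comparison with this list and those that follow, 10.6% of all genes rose and 13.5% fell. Calcium-dependent kinases counted 1 of 20 down, CPK1 at -1.6 (median -0.04), and MAP kinases 1 of 16 down (median 0.30, but -0.01 with centred arrays and -0.26 with values as deposited). CCCH zinc finger genes counted 9 up and 3 down of 50, 3 and 2 against both controls and 1 and 1 with values as deposited (median 0.33, but -0.11 with values as deposited). C3H37 rose by 3.25 and by 2.97 against the IR64 control. Of 6 WRKY factors 1 rose and 1 fell (median 0.25, but -0.02 with centred arrays and -0.27 with values as deposited), WRKY71 at 1.36 and WRKY76, a repressor of defence genes, at -1.37. Of 10 MYB factors 0 rose and 2 fell, MYBAS1 at -2.15 and MYBS1 at -1.70, although the median of the list was 0.60. That median was 0.27 with centred arrays, 0.02 with values as deposited and -0.17 against the IR64 control. Of 6 clock genes 1, GI, rose, at 1.46 (median 0.09, but -0.26 with centred arrays and -0.52 with values as deposited). Of 13 stress-associated proteins with A20 and AN1 zinc fingers 2 were called up (median 0.32, but -0.15 on the deposited scale), SAP2 at 1.04 and SAP7 at 1.02, and 0 were called with centred arrays or with values as deposited. The 2 dimmer probe sets of SAP7 were at 0.03 and 0.26.

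Redox and defence genes were called in part, where 10.6% of all genes rose and 13.5% fell. Of 13 genes of catalase, superoxide dismutase and ascorbate peroxidase 2 rose and 1 fell (median -0.01). With centred arrays and with values as deposited 0 rose, at medians of -0.41 and -0.66. The dismutase SodCc2 rose by 1.62 and a gene labelled catalase by 1.23, while catA fell by 1.83 (standard error 0.09, adjusted p = 1.1e-07) and by 1.51 against the IR64 control. Of 6 glutathione S-transferases 2 rose (median 0.54), GSTF1 and GSTU6, the latter with a dimmer probe set at -0.06, and 0 were called against the IR64 control. Metallothioneins counted 3 up of 7 (median 0.50, but -0.02 with centred arrays and -0.27 with values as deposited). Under both of these scalings 0 metallothioneins were called. MT4C rose by 1.89 against the Vandana control and was at -1.29 against the IR64 control. Chitinases and PR proteins counted 4 up and 1 down of 13, 1 and 1 against both controls and with values as deposited (median 0.11, but -0.18 with values as deposited), with chia4a at 3.31 and, downward, chitinase (gene ID 4348631) at -2.87. Of 4 genes listed under wax and cutin synthesis 0 rose and 2 fell, wsl6 at -2.48 and wsl3 at -1.11 (median -0.80). Neither was called against the IR64 control. Symbols alone placed these genes on the list, so that whether they act in wax synthesis was not tested.

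Some genes of nutrient uptake were called. Of 17 genes of nitrogen uptake and assimilation 1 rose and 3 fell (median -0.27; 17.6% down against 13.5% of all genes), and NIA1, GLU, a glutamate synthase, at -1.47 and AMT1, an ammonium transporter, at -1.07 were called against both controls. Of 12 phosphate transport genes 0 rose and 3 fell, 1 of them against both controls (median -0.31), and for both lists 0 rose and 1 fell with centred arrays and with values as deposited. The phosphate genes that fell by the labels were 25% of their list, against 13.5% of all genes. Among the phosphate genes was Pht1-1 at -1.09 and at -2.13 against the IR64 control, and a dimmer probe set of it at 0.29. Potassium and sodium transport counted 7 up and 3 down of 32, 3 and 2 against both controls and 2 and 2 with values as deposited (median 0.18, but -0.21 with values as deposited). By the labels these were 21.9% up and 9.4% down, against 10.6% and 13.5% of all genes. HAK18 rose by 3.01 and KCO2, a potassium channel, by 2.77, neither of them called against the IR64 control, while HAK17 fell by 1.92 and by 2.88.

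Leaf markers were present and high on all arrays. Their summed level over 9 genes was 24380 to 24704 on the Vandana control arrays and 18269 to 18387 on the Vandana drought arrays. Of the 9 genes 2 fell, PORA and PORB (22.2% against 13.5% of all genes), and 1 fell with centred arrays and with values as deposited. Of 8 root markers 2 rose by the labels (25% against 10.6% of all genes), and 0 with centred arrays or with values as deposited. The root markers summed to 539 to 543 on the Vandana control arrays, 856 to 873 on the Vandana drought arrays, 1675 to 1798 on the IR64 drought arrays and 6301 to 6489 on the IR64 control arrays. Their part in the results against the IR64 control was not tested. The root silicon transporter Lsi2 was at 4.04 and 4.15 in the means of Vandana control and drought, near the floor. Most of the difference lay in genes of iron uptake, with NAS1 at 7.52 in the mean of the Vandana control and at 11.73 in that of the IR64 control, where NAS1 in Vandana drought was at 8.88. NAS1 thus rose by 1.36 against the Vandana control and fell by 2.85 against the IR64 control. Seed markers, 10 genes, summed to 476 to 482 on the Vandana control and 756 to 887 on the Vandana drought arrays, and 1 of them, GLB1, rose, by 1.11, while GLUA1 and GLUA3 stayed near the floor. This share of 10% is near the 10.6% of all genes. GLB1 was not called without drought array B (0.995), and 0 seed markers were called with centred arrays or with values as deposited.

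The response by the labels was compared with that of IR64 by a test of the difference itself. The difference is taken over all 8 arrays of the drought experiment, and its standard error pools the spread over all 16 arrays. It passed at 4238 probe sets (7.41%), with the response higher in Vandana at 2087 and lower at 2151. The count of probe sets that passed was 901 with values as deposited, 1375 with centred arrays, 7719 with only these 8 arrays fitted and 8252 with array weights. By gene it passed at 2452 (13.7%). The controls were called apart at 2322 of the 4238 probe sets and the drought groups at 321.

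The 8 genes with a symbol whose response was most above that of IR64 were low in the Vandana control alone. For HOX24 the response was 6.31 in Vandana and 0.74 in IR64 (difference 5.57, adjusted p = 8.2e-09), with the IR64 drought arrays both at 11.35. The difference was 6.66 for pinA, 6.0 for EM, 5.33 for PM19L1 and 4.63 for PP2C68. BURP2, of the BURP domain family, was at 7.70 and 7.10 in the Vandana control and at 11.09 and 11.13 in drought, whereas in IR64 it went from 11.12 and 11.28 to 10.16 and 9.81. The kinase WNK7 and the autophagy gene APG8D rose by 4.33 and 4.10 in Vandana, with -0.36 and 0.12 in IR64. APG8D was called against both controls, at 1.12 against the IR64 control. LOC4328727 showed the largest difference of this direction, 8.08. Its change in Vandana was 6.13, but 3 dimmer probe sets of it were between 0.07 and 3.05.

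In the other direction, the 8 genes were higher in the Vandana control and IR64 drought than in the other groups, the pattern of the 70 probe sets above. TPP7 was at -3.69 in Vandana and 2.18 in IR64 (difference -5.87, adjusted p = 3.46e-07), and CYP76M7 at -3.57 and 2.16. In IR64 drought TPP7 was at 6.91 and 6.85 and CYP76M7 at 6.29 and 6.53. PP2C12, a protein phosphatase, was at -3.21 in Vandana and 1.54 in IR64, EIL1 (gene ID 4332697) at -2.26 and 1.89, and ASMT, named for a melatonin-forming enzyme, at -1.79 and 5.21. MCM9, GRXC10 and MADS55 had differences of -3.63, -3.49 and -3.38. The extreme was LOC4350213, at 10.10 and 10.19 in the Vandana control, 4.49 and 4.92 in Vandana drought, 4.03 and 4.27 in the IR64 control and 10.66 on both IR64 drought arrays.

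**Figure D5:**
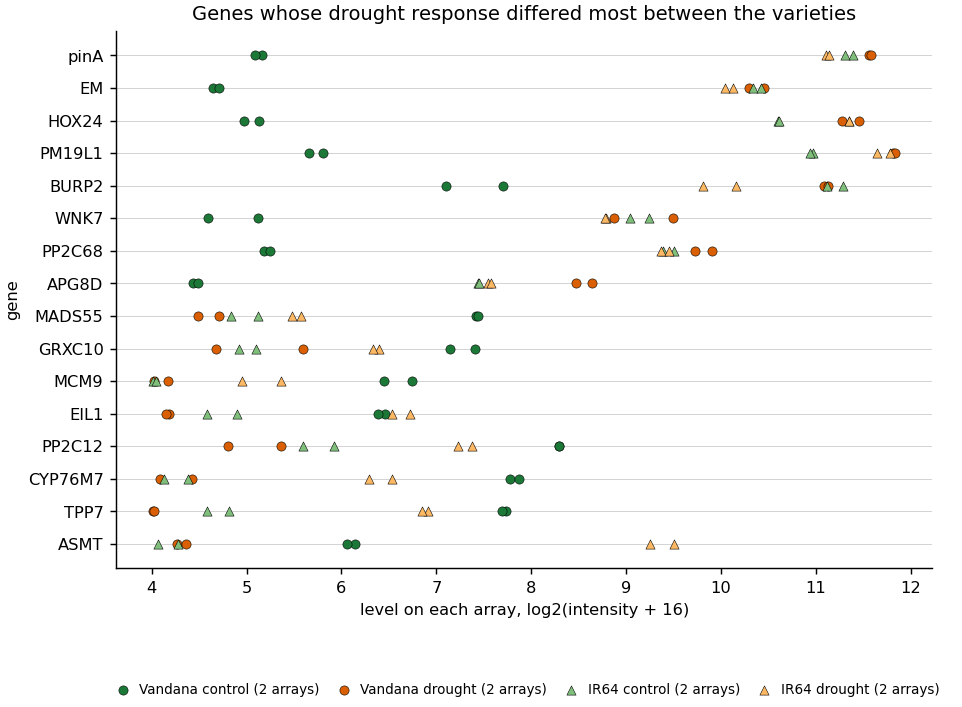
Each point is 1 array, with the level of the gene as log2(intensity + 16) on the horizontal axis and symbols and colours for the 4 groups of 2 arrays. In the upper 8 genes the Vandana control alone is low, and in the lower 8 the Vandana control and IR64 drought are both above Vandana drought and the IR64 control.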

How the data were processed

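RNA was hybridized to 16 Affymetrix rice genome arrays, 2 per group. The authors deposited linear intensities, 1 for each probe set on each array. GCOS 1.0 is the software in the submitters' processing notes, while the study's methods also describe RMA and the removal of absent probe sets. As these intensities carry no calls and their level differs between arrays, they were taken as not normalized. Of 57381 probe sets 187 control probe sets were removed. The others were quantile-normalized over all arrays and taken as log2(intensity + 16), with no filter on dim probe sets. The number of arrays limits the precision.

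Group means of all 8 groups were fitted together in limma 3.58.1 under R 4.3.3, with 8 residual and 2.94 prior degrees of freedom. Python 3.11.15 with pandas 2.3.3 (tables) and matplotlib 3.10.9 (plots) did the rest. The code was checked on simulated data with known shifts. Arrays with the same letter did not deviate together (r = -0.025 between the Vandana groups), so no block was used.

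Exactly 1 gene is annotated for 22436 probe sets and several for 95. In all 17905 genes are covered, 2446 with a true symbol and the others known by locus number. Gene lists were matched to these symbols (RefSeq names of the assembly ASM3414082v1), so that families are covered in part. Named genes were the 15 with a symbol and the largest change in each direction, up to 4 called genes per list (up to 2 where none was called), genes with a defined role in a pathway, and the 8 with a symbol in each direction whose responses differed most. The largest 8 of these differences without regard to symbols held 7 genes with only a locus number in one direction and 8 in the other, so that a symbol was then required. The members and lists were chosen with earlier results of these data known.

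Alternatives were the pseudocount, the normalization, the arrays fitted, a filter on dim probe sets, the variance model, the methods' t-test, the control group, a block for the array letter and leaving out each array.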

Additional observations from a re-analysis of the deposited data

Results flagged for a closer look

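The test of the difference between the responses of Vandana and IR64 was passed by 78 of the 155 genes named above, with the response higher in Vandana for 45 and lower for 33. Over all genes it passed at 13.7%. The named genes were picked in part by this same test and in part by a large change in Vandana. Their share is therefore set by the choice and is no result about them. All values are the response in Vandana minus that in IR64, in log2 units, by limma with an adjusted p under 0.05 over all probe sets. The variety labels of the drought experiment are in doubt, so that a difference of responses and a difference of varieties cannot be told apart.

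Among ABA and signalling genes the difference was 4.63 for PP2C68, 4.68 for WNK7, 3.13 for ABA8OX2, 2.84 for PP2C30, 2.11 for PP2C51, 1.85 for PP2C59 and 1.81 for PP2C08. For kinases, bZIP and calcium sensor genes it was 1.77 for ABF2, 1.66 for SAPK6, 1.18 for SAPK1, 1.05 for SAPK3 and 1.06 for CBL10, and for the receptor it was -1.52 for PYL11. Among transcription factors it was 5.57 for HOX24, 3.35 for HOX7, 2.37 for HSF05, 2.19 for HSF01 and 1.89 for Hox22 upward and -4.14 for EIL1 (gene ID 4332697), -3.38 for MADS55, -2.26 for RR9, -1.95 for IAA23 and -1.15 for MYBS1 downward, where the response regulator and the auxin repressor are counted with the factors.

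Among protective proteins, solutes and chaperones it was 6.0 for EM, 3.51 for RAB16B, 2.88 for RAB16D, 1.95 for RAB16C, 1.37 for rab25, 5.33 for PM19L1, 2.84 for LTP-2, 1.42 for P5CS1, 2.66 for HSP18.1 and -1.35 for HSP18.8. For sugar, carbon and water genes it was 2.5 for SWEET15, 1.82 for PDHE1-A (gene ID 4340640), 1.21 for ICL, 0.98 for TIP3, 0.84 for SUS4, -5.87 for TPP7 and -0.94 for SWEET2b. Pigment genes had 3.05 for PSY3, -1.13 for CHLD and -0.93 for CHLG.

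For wall genes and the list of wax synthesis, matched by symbol, the difference was 0.89 for CSLA5, -2.24 for LAC4, -1.82 for EXP2, -1.47 for CESA7, -1.29 for wsl3, -1.20 for CESA4, -1.10 for EXPB3 and -0.92 for EXPB4. For replication, auxin efflux and RNA helicase genes it was -3.63 for MCM9, -2.86 for RH2, -1.74 for PIN5a, -1.21 for PCNA and -0.80 for MCM4. Metal, nitrogen and ion transport genes had 3.62 for MT4C, 3.24 for NAS1, 2.32 for KCO2, 2.14 for HAK18, -2.55 for NAS3 and -0.59 for NIA1. Defence and redox genes had 2.95 for chia4a, 1.83 for GSTU6, -7.0 for ASMT, -5.73 for CYP76M7, -3.49 for GRXC10 and -2.67 for GRXC1.

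The other genes were at -11.96 for LOC4350213, -10.71 for LOC4341223, -6.73 for LOC4350706, -4.76 for PP2C12, 3.88 for LOC4345700, 3.98 for APG8D, 4.93 for BURP2, 6.54 for LOC4352472, 6.66 for pinA and 8.08 for LOC4328727.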

How the results depend on the processing

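By the labels 3005 probe sets were up and 3731 down, 1148 and 1710 were called against both controls, and the responses differed at 4238. With a pseudocount of 64 the first 4 counts were 1756, 2301, 694 and 976, and with 1 the responses differed at 2074. With centred arrays 1526 were up, 489 up and 641 down against both controls, and the responses differed at 1375. With values as deposited the 5 counts were 761, 2315, 236, 148 and 901. The responses differed at 7614 probe sets with quantile normalization and fit over 8 arrays, at 7719 with only the fit restricted, and at 8252 with array weights. The methods' t-test called 2342 up and 2789 down, and 827 and 1220 against both controls, but 0 in all 4 after Benjamini-Hochberg adjustment. With the IR64 control in place of the Vandana control 1401 were up and 2192 down. Leaving out 1 array gave 2793 to 2875 up, 3468 to 3599 down, 1016 to 1112 up and 1511 to 1678 down against both controls, and 2827 to 3178 for the responses. The array letters did not pair the samples, and as a replicate block they gave 2997, 3717, 1147, 1712 and 4033. The cause of these changes was not tested.

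Of 145 called genes named above, 106 kept their call with centred arrays and 81 with values as deposited, and 0 changed sign under any alternative but the control group. With the IR64 control 86 kept it and 15 changed sign, at -0.10 for ABF2, 0.14 for ASMT, -0.092 for BURP2, 0.0018 for CYP76M7, -0.0092 for EM, 0.12 for GRXC10, -0.12 for GSTU6, -0.11 for HSF05, -0.92 for LOC4328727, 0.29 for LOC4341223, 0.56 for LOC4350213, 0.069 for MCM9, -1.29 for MT4C, -2.85 for NAS1 and -0.054 for WRKY71. Without 1 of the 4 Vandana arrays, calls were lost for NYC1 and SAP2 with each, for CLPB1 with 3, for TIP3-2 and SAP7 with 2, and for ADC1, AMT1 and GLB1 with 1. Of the 78 differences of responses 31 kept their call with centred arrays and 19 with values as deposited. Changes of probe sets near the floor are understated.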
